A study of Mus musculus with 12 samples.

Results

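The genes described here are the axon guidance ligands and receptors: the semaphorins with their plexin and neuropilin receptors, the ephrins with the Eph receptors, the slits with the robos, and the netrins and netrin-G proteins with the netrin receptors Dcc, Neo1 and Unc5a to Unc5d. Within these families every protein-coding row was taken by its symbol. The rule found 74 of the 38887 rows of the table, for 72 distinct symbols, since Efna5 and Ntng1 each have 2 rows. Of the 74 rows, 62 passed the filter for testing (3 or more of the 12 libraries at 1 RPKM or above). RPKM is the read number scaled by gene length and by the size of the library. A gene present in only 1 group of 3 libraries can pass this filter, so the 62 are not a neutral selection of the 74.

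RNA was sequenced from hand-picked mouse retinal ganglion cells of 2 classes in 4 groups of 3 libraries. Opn4 cells came from Opn4CreERT/+;R26-tdTomatof/f mice, in which a tamoxifen-dependent Cre expressed from the melanopsin gene turns on a red reporter in intrinsically photosensitive ganglion cells. The source of HB9 cells was HB9:GFP mice, whose transgene with the HB9 (Mnx1) promoter marks ON-OFF direction-selective ganglion cells in green. Mice of both lines received tamoxifen at 0.124 mg per g on 5 days from postnatal day 21, and optic nerve crush or sham surgery was done at postnatal day 42, 3 days before collection. All 4 groups therefore share the tamoxifen, while Cre and the red reporter belong to the Opn4 line alone and cannot be told apart from the cell class. Each animal gave 10 cells, and 3 such pools were joined into 1 library of 30 cells. The labels call each such library a biological sample, and p-values here measure the spread between these samples. In such pools, fewer cells holding a transcript and less of it per cell cannot be told apart.

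Guidance ligands sit on or leave one cell and turn, repel or attract the growth cone of another cell that carries the receptor. In the developing retina, netrin-1 and Dcc lead ganglion cell axons into the optic nerve, slits and Robo2 keep the axons on their path, Ephb1 with ephrin-B2 sorts them at the chiasm, and A ephrins with EphA receptors order their map in the brain. Semaphorins and plexins are also known for placing neurites in the layers of the inner retina. Many of these genes stay on in adult neurons, where several are studied as brakes on the regrowth of cut axons.

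The totals by which reads were divided, inferred from the steps of the RPKM values, lay between 15104446 and 28195798 reads per library. The libraries held 15021 to 16514 genes at an RPKM of 1 or more, and Opn4 sham 1 had the fewest. That library and Opn4 crush 1 stood apart from the others on the third principal component, at 83.8 and -61.9. Melanopsin (Opn4) was at 1580.0 ± 281 RPKM after sham and 1360.0 ± 63.9 after crush in Opn4 cells (mean ± SD, n = 3), against 8.42 ± 10.5 and 15.3 ± 11.9 in HB9 cells. The other class markers followed the labels as well. Eomes was at 384 and 220.0 RPKM in Opn4 cells and at 0.958 and 8.08 in HB9 cells. Mnx1 was at 32.2 and 2.38 RPKM in HB9 cells and at 0.0481 and 0 in Opn4 cells, and Cartpt was at 5380.0 and 4550.0 against 149 and 126. The injury-induced factors Atf3 and Jun marked the crush groups: Atf3 was at 59.2 RPKM in Opn4 cells and 540.0 in HB9 cells, and Jun at 246 and 251, against 0.0824, 0.0868, 11 and 25.9 after sham. Sox11 averaged 2.12 and 7.84 RPKM after crush. Rod transcripts were in every library, with a mean log2 value over 15 rod markers of 4.52 to 6.06 in Opn4 sham, 5.14 to 6.52 in Opn4 crush, 3.05 to 4.76 in HB9 sham and 3.96 to 4.70 in HB9 crush libraries. Of those 15 markers, 2 were past the threshold, both higher in Opn4 cells, in each class comparison, and none was at 0 in any group. Of 11 markers shared by ganglion cells, 7 were lower in Opn4 cells after sham (median log2 difference -1.26) and 5 were lower and 1 higher after crush (-0.81). Bipolar cell markers had a median difference of 0.09 after sham and 1.25 after crush, with 1 of 10 lower and 1 of 10 higher. Of 8 tested amacrine cell markers, 2 were higher and 1 lower in Opn4 cells after sham, and 1 was higher after crush. Of 6 tested markers of Muller glia and astrocytes, 1 was higher in Opn4 cells in each class comparison. Of 9 tested cone markers, 0 passed the threshold in either. Of 11 markers of microglia and macrophages 6 to 7 were at 0 in a group, and of 9 vascular markers 4 to 6. The part of these cells in the differences below was not tested, except that each comparison was refitted with the mean rod level of each library as a covariate. Rod level tended to follow class, with medians of 5.43 and 5.56 in Opn4 sham and crush and 3.56 and 4.21 in HB9 sham and crush libraries. The covariate therefore overlaps the class contrast, and a call lost with it does not show that the difference went away.

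The guidance genes covered a wide range of levels. Of the 74 rows, 20 averaged at least 10 RPKM over the libraries, 25 had at least 1 RPKM in all 12, and 12 stayed below the filter. Epha2 was at 0 in every library. The highest member of its family by mean RPKM was Sema3e among the secreted semaphorins, Sema6b among the transmembrane and anchored ones, Plxna2 among the plexins, Nrp2 of the neuropilins, Efna5 and Efnb1 among the ephrins, Epha5 and Ephb6 among the Eph receptors, and Slit1, Robo2, Ntn4, Ntng1 and Unc5a among the rest. Unc5a at 45.4 RPKM and Sema6b at 44.7 RPKM over all libraries led the whole set. The netrins themselves were scarce: Ntn4, the highest, averaged 2.51 RPKM, while the netrin receptors together summed to 140.0 ± 7.88 RPKM in Opn4 sham and 37.6 ± 8.98 RPKM in HB9 sham libraries (mean ± SD, n = 3).

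**Figure D1:**
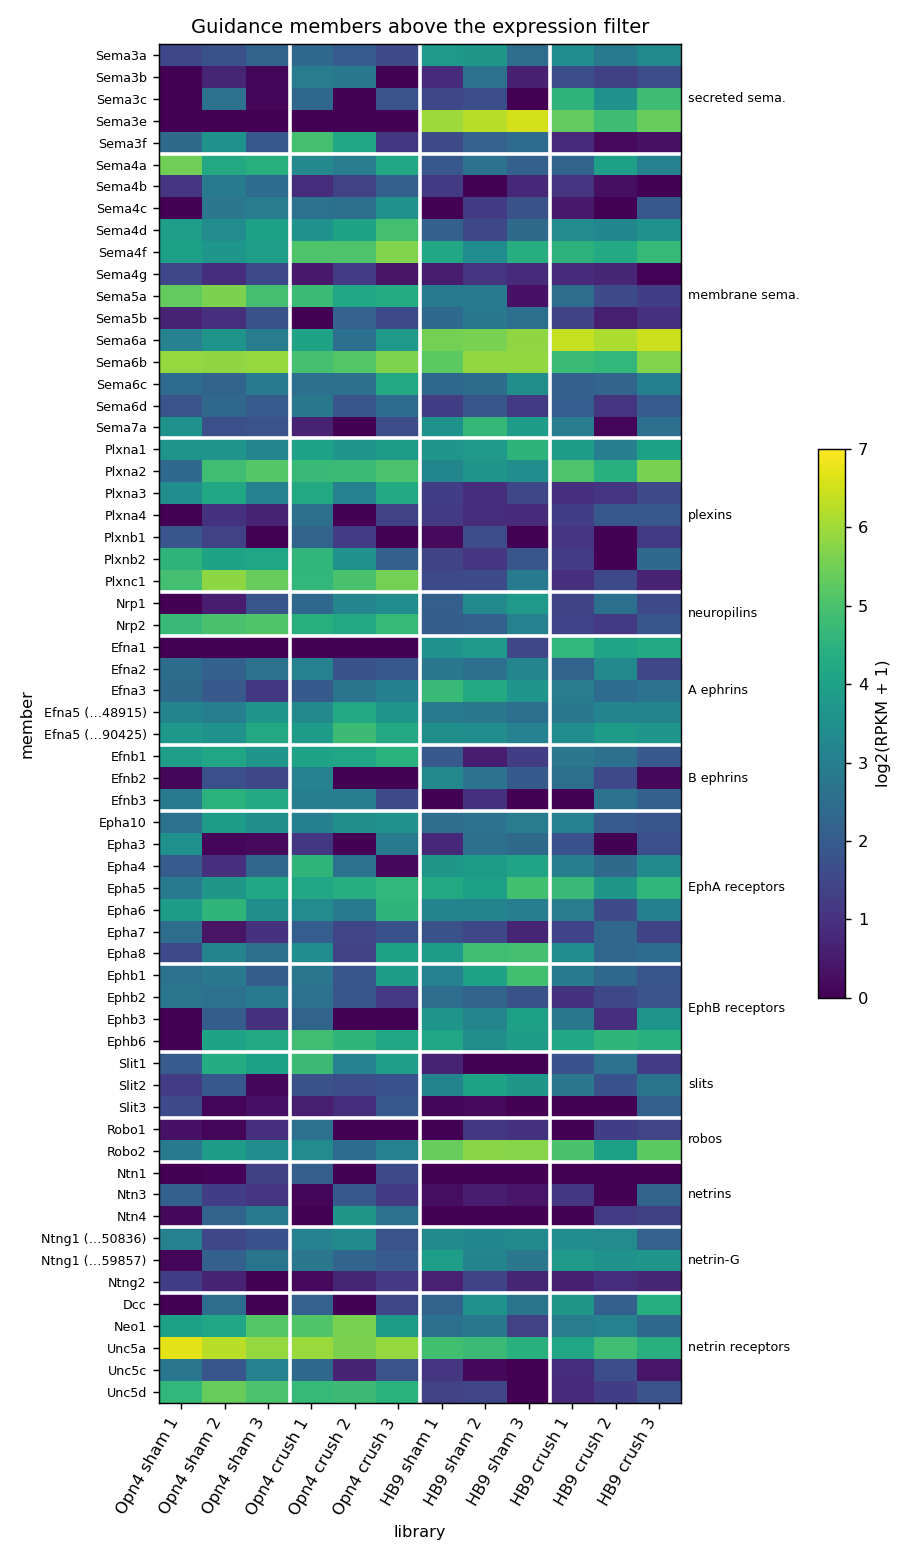
Expression of the 62 guidance rows that passed the filter (rows, grouped by family) in each of the 12 libraries (columns, by group), as log2(RPKM + 1) on the colour scale. Sema3e is bright in the 6 HB9 libraries and dark in the 6 Opn4 libraries, whereas Plxnc1, Unc5d and Nrp2 show the opposite arrangement.

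The uninjured classes were compared to see which guidance genes distinguish them. Differences are Opn4 minus HB9 on the log2(RPKM + 1) scale with their standard errors, from limma fitted on all 12 libraries, and p-values were adjusted over the 18269 genes tested (Benjamini-Hochberg). The pseudocount of 1 makes these differences understate the change of genes with low values. After sham, 22 of the 62 tested members were past an adjusted p of 0.05, or 35.5% of them, beside 11.8% of all genes tested. Of these, 14 were higher in Opn4 cells (background 5.82%) and 8 were higher in HB9 cells (background 5.93%), and the median difference was 0.08, beside 0.01 over all genes. The groups did not overlap for 39 of the 62, while this held for 30.7% of all genes. After crush, 15 members were past the threshold, or 24.2%, beside 12.7% of all genes. Of these, 10 were higher in Opn4 cells and 5 in HB9 cells, with backgrounds of 5.12% and 7.6%. The median was 0.37 over the members and -0.12 over all genes, and 23 members did not overlap between the groups, beside 30.4% of all genes.

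Among the secreted semaphorins, Sema3e (ENSMUSG00000063531, mm10 chr5:14025276-14256689, plus strand) separated the classes most widely of all guidance genes. It encodes a class 3 semaphorin that binds plexin-D1 directly, without a neuropilin. Its values were 61.8, 75.8 and 93.3 RPKM in the 3 HB9 sham libraries and 0.0115, 0.00873 and 0 RPKM in the 3 Opn4 sham libraries (values are listed from replicate 1 to replicate 3 throughout). After crush they were 38.7, 27.4 and 40.6 RPKM in HB9 cells and 0.0381, 0.0291 and 0.0312 RPKM in Opn4 cells. Every HB9 library thus held far more Sema3e than any Opn4 library, before and after injury. Reads recovered from the RPKM steps numbered 0 to 5 per Opn4 library and 5859 to 14153 per HB9 library. Such reads sum to more than the scaling totals of the libraries, so these numbers show only how near 0 the Opn4 values lay. The log2 difference was -6.25 ± 0.35 (adjusted p = 6.13e-07) after sham and -5.13 ± 0.35 (adjusted p = 4.31e-06) after crush. Plxnd1, its receptor, did not pass the filter and ranged from 0 to 1.37 RPKM in Opn4 and from 0.18 to 0.729 RPKM in HB9 libraries.

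The other secreted semaphorins were lower and less even. Sema3a, the neuropilin-1 ligand that collapses growth cones, was at 1.84, 2.31 and 3.65 RPKM in Opn4 and 12.5, 11.9 and 4.71 RPKM in HB9 cells after sham, a difference of -1.50 ± 0.46 (adjusted p = 0.0497). That call lay at the threshold and ended under 16 of 21 alternative analyses, among them those without Opn4 sham 1, Opn4 sham 2, Opn4 sham 3, Opn4 crush 2, HB9 sham 1, HB9 sham 2, HB9 crush 1, HB9 crush 2 or HB9 crush 3, with an adjusted p of up to 0.182. After crush Sema3a was at 4.21, 3.12 and 2.03 RPKM in Opn4 and 9.84, 6.44 and 9.27 RPKM in HB9 cells, without overlap (-1.22 ± 0.46, adjusted p = 0.102). Sema3c, which also acts through neuropilins, was past the threshold after crush and not after sham (-0.16 ± 0.81, adjusted p = 0.934). In the injured cells it was at 4.14, 0 and 2.43 RPKM in Opn4 and 22.3, 10.8 and 27.3 RPKM in HB9 cells (-2.93 ± 0.81, adjusted p = 0.0309), and the call ended without Opn4 crush 2, HB9 crush 1 or HB9 crush 3 (adjusted p up to 0.11). It ended as well with a pseudocount of 0.1, no filter on low values, a replicate block or voom on recovered reads (up to 0.168). Sema3f, the main neuropilin-2 ligand, was past the threshold in the other direction after crush, at 2.97 ± 0.81 (adjusted p = 0.0291). Its 3 Opn4 crush libraries were far apart, at 29.2, 17.1 and 1.21 RPKM, against 0.786, 0.136 and 0.234 RPKM in HB9 cells, and the call ended without Opn4 crush 1, Opn4 crush 2, HB9 crush 1, HB9 crush 2 or HB9 crush 3 (adjusted p up to 0.0996). It ended as well with no filter on low values, a fit of the compared groups only, voom on recovered reads or both Opn4 libraries numbered 1 left out (up to 0.128). Sema3d and Sema3g stayed below the filter. With the rod covariate the calls of Sema3a, Sema3c and Sema3f were lost (adjusted p 0.13, 0.0761 and 0.298), and that of Sema3e was kept (7.58e-05 after sham and 0.000271 after crush). The refitted differences were -1.88 for Sema3a, -3.65 for Sema3c and 2.1 for Sema3f.

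Of the 13 semaphorins held at the membrane, 4 were past the threshold after sham and 2 after crush. Sema6a (ENSMUSG00000019647, mm10 chr18:47235598-47368870, minus strand), a transmembrane ligand of A plexins, was higher in HB9 cells, at 45.4, 47.1 and 55.8 RPKM after sham against 7.67, 11.4 and 6.85 RPKM in Opn4 cells. The gap was there after crush too, at 83.1, 70.1 and 87.9 against 15.2, 4.85 and 12.5 RPKM. No Opn4 library reached any HB9 library, and the differences were -2.41 ± 0.35 (adjusted p = 0.00073) and -2.90 ± 0.35 (adjusted p = 0.000221). Sema5a, a transmembrane semaphorin with thrombospondin repeats, was higher in Opn4 cells. It stood at 38.6, 48.4 and 29 RPKM after sham and 26.3, 17.2 and 18.9 RPKM after crush, against 6.22, 6.56 and 0.27 RPKM and 4.64, 2.07 and 1.47 RPKM in HB9 cells. The differences were 3.24 ± 0.61 (adjusted p = 0.00387) and 2.62 ± 0.61 (adjusted p = 0.0141). The second of these ended without HB9 crush 3 (adjusted p = 0.0606) and with a pseudocount of 0.1 (0.0548).

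Sema4a, a class 4 semaphorin needed for photoreceptor survival, was at 43.4, 17.7 and 20.4 RPKM in Opn4 and 2.71, 5.27 and 3.44 RPKM in HB9 cells after sham (2.48 ± 0.51, adjusted p = 0.00709). After crush the groups overlapped, at 8.85, 6.69 and 17 RPKM in Opn4 and 3.8, 14.4 and 7.49 RPKM in HB9 cells, and the difference was 0.38 ± 0.51 (adjusted p = 0.696). Sema4d, the plexin-B1 ligand, was named after its values were seen. It was higher in Opn4 cells after sham (1.73 ± 0.41, adjusted p = 0.016), and lost the call without Opn4 sham 3 or HB9 sham 2 (adjusted p up to 0.0742). After crush Sema4d was at 11.2, 15.2 and 28.9 RPKM in Opn4 and 9.33, 8.66 and 11.1 RPKM in HB9 cells, without overlap (0.76 ± 0.41, adjusted p = 0.266). Sema6b, the highest member of this family, was at 58.2, 56.1 and 58.1 RPKM in Opn4 and 36.9, 57.4 and 57.6 RPKM in HB9 cells after sham, groups that overlapped (0.21 ± 0.30, adjusted p = 0.737, 95% interval -0.45 to 0.86). With the rod covariate the calls of Sema5a (0.146 after sham and 0.253 after crush), Sema4a (0.0625) and Sema4d (0.0541) were lost, while those of Sema6a were kept (0.015 and 0.00485). The refitted differences were 2.07 and 1.52 for Sema5a, 2.66 for Sema4a and 2.14 for Sema4d.

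Of 7 tested plexins, 3 were past the threshold, all higher in Opn4 cells and in both class comparisons; plexins are the signalling receptors of semaphorins. Plxnc1 (ENSMUSG00000074785, mm10 chr10:94790866-94944578, minus strand), the receptor of Sema7a, was at 29.2, 54.9 and 40.4 RPKM after sham and 23.7, 31 and 45.4 RPKM after crush in Opn4 cells. HB9 cells held 1.89, 2.07 and 6.4 RPKM after sham and 0.944, 1.9 and 0.598 RPKM after crush. The lowest Opn4 library was well above the highest HB9 library, and the differences were 3.35 ± 0.46 (adjusted p = 0.000412) and 4.0 ± 0.46 (adjusted p = 0.000131). Its ligand gene Sema7a lay the other way, at 11.2, 24.4 and 13.4 RPKM in HB9 and 11, 2.29 and 2.48 RPKM in Opn4 cells after sham, without passing the threshold (-1.67 ± 0.77, adjusted p = 0.202); it was described after its values were seen. Plxna3, which signals for class 3 semaphorins together with neuropilins, differed by 2.32 ± 0.47 (adjusted p = 0.00627) and 2.64 ± 0.47 (adjusted p = 0.00305). Plxnb2, a receptor of class 4 semaphorins, differed by 2.78 ± 0.67 (adjusted p = 0.0163) and 2.25 ± 0.67 (adjusted p = 0.0438). After sham it was at 22.6, 15.5 and 16.6 RPKM in Opn4 and 1.7, 1.15 and 2.66 RPKM in HB9 cells. After crush the groups overlapped, at 23.4, 10.9 and 3.45 RPKM in Opn4 and 1.3, 0 and 4.22 RPKM in HB9 cells. The sham call of Plxnb2 ended without Opn4 sham 1, HB9 sham 1 or HB9 sham 2 (adjusted p up to 0.0664) and with a pseudocount of 0.1 or voom on recovered reads (up to 0.0991). Its crush call ended under 16 of 21 alternatives, including those without Opn4 sham 2, Opn4 sham 3, Opn4 crush 1, Opn4 crush 2, HB9 sham 1, HB9 sham 2, HB9 sham 3, HB9 crush 1 or HB9 crush 2 (up to 0.168). Plxnb2 was lost in both comparisons (0.235 and 0.316) with the rod covariate, as was Plxna3 after sham (0.091). The refitted differences were 2.24 and 1.74 for Plxnb2 and 2.225 for Plxna3.

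The neuropilins, which bind class 3 semaphorins and pass the signal to A plexins, differed in opposite directions after sham. Nrp2 (ENSMUSG00000025969, mm10 chr1:62703285-62818695, plus strand) was at 25.5, 31 and 33.1 RPKM in Opn4 and 3.18, 3.55 and 7.35 RPKM in HB9 cells, with no overlap (2.50 ± 0.38, adjusted p = 0.000876). After crush it was at 20, 17.8 and 24.8 against 1.66, 1.26 and 2.69 RPKM (2.95 ± 0.38, adjusted p = 0.000308). Nrp1 was at 0, 0.482 and 2.55 RPKM in Opn4 and 3.38, 9.27 and 12.9 RPKM in HB9 cells after sham (-2.30 ± 0.60, adjusted p = 0.0261), so that Opn4 cells were high in Nrp2 and low in Nrp1. The Nrp1 call ended under 9 of 21 alternatives, including those without Opn4 sham 1, Opn4 sham 2, HB9 sham 2 or HB9 sham 3 (adjusted p up to 0.113) and with the rod covariate (0.557). With that covariate the Nrp1 difference after sham was -0.81. After crush Nrp1 was at 4.16, 8.1 and 9.75 RPKM in Opn4 and 1.72, 4.87 and 1.93 RPKM in HB9 cells, a difference of 1.14 ± 0.60 (adjusted p = 0.253).

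The bases before the RefSeq start of 4 genes whose values differed between the classes are shown so that their promoters can be read beside the values. RefSeq (build GRCm38.p6) gave a promoter entry for 62 of the 72 symbols. The windows are Sema3e chr5:14025026-14025275 (plus strand), Unc5a chr13:54949161-54949410 (plus), Plxnc1 chr10:94944846-94945095 (minus) and Nrp2 chr1:62703067-62703284 (plus), printed 5′ to 3′ on the gene's strand. The RefSeq start of Plxnc1 is not the one in the coordinates given above for the gene: 267 bases lie between that start and the window. Each has 250 bases, except that of Nrp2, which stops after 218 where the GENCODE annotation begins an exon. The RefSeq start of Nrp2 lies inside the coordinates given above for the gene, so its window ends short of that start. Capitals mark matches to 1 of 3 motifs searched on both strands: the T-box letters GGTGTGA (the family of Eomes), the homeodomain letters TAATTA (the family of Mnx1) and the AP-1 letters TGANTCA (the family of Jun).
Sema3e: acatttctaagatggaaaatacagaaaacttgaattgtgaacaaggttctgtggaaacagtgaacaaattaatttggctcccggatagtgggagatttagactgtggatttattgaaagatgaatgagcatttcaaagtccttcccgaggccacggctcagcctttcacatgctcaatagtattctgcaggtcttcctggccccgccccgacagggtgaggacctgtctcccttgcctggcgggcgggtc
Unc5a: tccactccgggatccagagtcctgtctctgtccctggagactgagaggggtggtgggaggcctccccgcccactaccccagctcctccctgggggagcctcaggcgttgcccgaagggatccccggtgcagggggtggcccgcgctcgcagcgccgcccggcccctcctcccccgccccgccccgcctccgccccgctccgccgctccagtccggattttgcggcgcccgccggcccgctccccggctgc
Plxnc1: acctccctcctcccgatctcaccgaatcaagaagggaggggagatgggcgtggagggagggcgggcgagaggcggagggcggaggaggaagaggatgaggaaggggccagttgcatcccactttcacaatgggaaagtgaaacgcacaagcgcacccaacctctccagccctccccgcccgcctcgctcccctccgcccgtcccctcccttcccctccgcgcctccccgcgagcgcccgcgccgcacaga
Nrp2: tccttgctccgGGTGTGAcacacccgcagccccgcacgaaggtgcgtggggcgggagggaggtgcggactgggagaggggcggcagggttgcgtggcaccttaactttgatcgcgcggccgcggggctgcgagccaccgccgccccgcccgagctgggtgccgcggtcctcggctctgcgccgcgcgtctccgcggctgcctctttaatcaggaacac
The Sema3e window had a GC content of 48.0% with 7 CpG, near the median of all 32851 windows of 250 bases (52.4% and 6 CpG), whereas the others were richer. GC was 76.8% with 25 CpG for Unc5a, 68.8% with 22 CpG for Plxnc1 and 72.5% with 28 CpG for Nrp2. Nrp2 held 1 T-box match and the other windows held none of the 3 motifs, which says only that these letters are not in these windows. Over all windows, 3.33% held the T-box letters, 4.84% the homeodomain letters and 6.75% the AP-1 letters.

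Of the ephrins, the ligands of Eph receptors, 2 of 5 tested A rows and 2 of 3 B members passed the threshold after sham. Efna1 (ENSMUSG00000027954, mm10 chr3:89271733-89281142, minus strand), a lipid-anchored ligand of EphA receptors, was at 0 in all 6 Opn4 libraries. It was at 10.8, 12.6 and 1.81 RPKM in HB9 sham and 23.9, 16.1 and 18.4 RPKM in HB9 crush libraries. Against a floor of 3 reads over the Opn4 group, this was at least 319-fold lower in Opn4 cells after sham and at least 662-fold lower after crush, a bound that covers counting error only. The fitted differences were -2.94 ± 0.55 (adjusted p = 0.00353) and -4.33 ± 0.55 (adjusted p = 0.000276). Efna3, of the same kind, was at 4.32, 2.86 and 1.2 RPKM in Opn4 and 25.9, 18 and 11.5 RPKM in HB9 cells after sham (-2.38 ± 0.47, adjusted p = 0.0052). After crush it was at 2.94, 5.58 and 7.15 RPKM against 6.85, 4.49 and 5.36 RPKM (-0.12 ± 0.47, adjusted p = 0.899), and the groups overlapped. In the GENCODE annotation 14.1% of the exon bases of Efna3 overlap the gene Gm15998 on the other strand, and whether the counting used strand is not given in the sources used here, so the Efna3 values are uncertain. Efna5, which helps to set the map of ganglion cell axons in the brain, did not pass the threshold: its longer row was at 7.97, 6.9 and 11.8 RPKM in Opn4 and 6.25, 6.12 and 4.88 RPKM in HB9 cells after sham (0.53 ± 0.37, adjusted p = 0.427). The shorter Efna5 row, with the higher RPKM, lies inside the longer one, so the rows are not independent.

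Of the transmembrane B ephrins, Efnb1 and Efnb3 were higher in Opn4 cells after sham. Efnb1 was at 13.9, 16.2 and 11.9 RPKM in Opn4 and 2.85, 0.482 and 1.47 RPKM in HB9 cells after sham (2.62 ± 0.43, adjusted p = 0.00145). After crush it was at 15.2, 16.7 and 21.1 against 5.82, 4.85 and 2.88 RPKM (1.78 ± 0.43, adjusted p = 0.0159), which was lost without HB9 crush 3 (adjusted p = 0.0705). Opn4 libraries were above all HB9 libraries in both comparisons. Efnb3 was at 6.32, 21 and 17.6 RPKM in Opn4 and 0.028, 1.02 and 0 RPKM in HB9 cells after sham (3.50 ± 0.72, adjusted p = 0.00664), a call that ended when voom was run on recovered reads (0.0629), and it overlapped after crush (0.91 ± 0.72, adjusted p = 0.464). Efnb2, the midline partner of Ephb1, was at 0.0707, 2.25 and 1.84 RPKM in Opn4 and 8.77, 5.36 and 2.93 RPKM in HB9 cells after sham and did not pass the threshold (-1.54 ± 0.86, adjusted p = 0.296). With the rod covariate the Efnb1 calls were lost (0.0526 and 0.185), and those of Efna1 (0.0184 and 0.00264), Efna3 (0.0245) and Efnb3 (0.0465) were kept. The refitted Efnb1 differences were 2.248 and 1.435.

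None of the 7 tested EphA and 4 tested EphB receptors passed the threshold in either class comparison with limma. After sham 2 of each had an unadjusted p under 0.05, and after crush 1 of each. With voom on recovered reads none passed either, and unadjusted p-values under 0.05 numbered 1 EphA and 2 EphB after sham and 2 EphA and 1 EphB after crush. The matching share over all genes is not given for counts of unadjusted p-values, here or below. Such counts are therefore not read as a result about the members. The lowest adjusted p-values after sham belonged to Ephb3 and Epha8, which were described after their values were seen. Ephb3 was at 11.3, 8.18 and 14.9 RPKM in HB9 and 0.00694, 3.16 and 1.04 RPKM in Opn4 cells (-2.57 ± 0.79, adjusted p = 0.0515). Epha8 was at 13.1, 27.8 and 28.9 RPKM in HB9 and 1.99, 7.99 and 4.77 RPKM in Opn4 cells (-2.10 ± 0.67, adjusted p = 0.0611). For both, every HB9 sham library lay above every Opn4 sham library, and after crush the groups overlapped. Epha5, the highest EphA receptor, was at 6.31, 12.1 and 17.3 RPKM in Opn4 and 18.2, 14.6 and 28.5 RPKM in HB9 cells after sham (-0.78 ± 0.41, adjusted p = 0.267, 95% interval -1.66 to 0.10). Ephb6, the highest EphB receptor and one without kinase activity, was at 0, 15.6 and 18.3 RPKM in Opn4 sham and 16.2, 9.91 and 13.5 RPKM in HB9 sham libraries (-1.03 ± 0.84, adjusted p = 0.501). Its value of 0 came from Opn4 sham 1, the library with the fewest genes detected. Ephb1, the receptor that marks ipsilateral axons in development, was at 5.28, 5.95 and 3.21 RPKM in Opn4 and 7.4, 15.4 and 28.6 RPKM in HB9 cells (-1.49 ± 0.59, adjusted p = 0.131). The intervals of the Epha5, Ephb6 and Ephb1 differences are wide, and none shows that the classes are alike in Eph receptors.

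The slits and their receptors the robos gave 3 calls after sham. Slit1 was higher in Opn4 cells, at 3.06, 19 and 14.4 RPKM against 0.587, 0 and 0 RPKM in HB9 cells (3.21 ± 0.65, adjusted p = 0.00617). Slit2 was higher in HB9 cells, at 7.94, 15.7 and 12 RPKM against 1.31, 2.79 and 0.0679 RPKM (-2.57 ± 0.52, adjusted p = 0.00601). Each class thus held more of a different slit before injury. After crush neither passed the threshold, at 2.06 ± 0.65 (adjusted p = 0.0561) for Slit1 and -0.69 ± 0.52 (adjusted p = 0.436) for Slit2. The groups still did not overlap. Slit1 was at 26.9, 7.61 and 14.2 RPKM in Opn4 and 2.42, 5.21 and 1.35 RPKM in HB9 crush libraries. Slit2 was at 2.36, 2.2 and 2.38 against 5.87, 2.39 and 5.54 RPKM. Robo2 (ENSMUSG00000052516, mm10 chr16:73892306-74411825, minus strand), the main slit receptor of ganglion cell axons, was at 40.4, 52.7 and 51.9 RPKM in HB9 sham and 6.38, 13.2 and 9.74 RPKM in Opn4 sham libraries (-2.23 ± 0.40, adjusted p = 0.00264). After crush it was at 31.1, 14.3 and 36.6 against 9.43, 4.49 and 7.23 RPKM (-1.76 ± 0.40, adjusted p = 0.0118), which was lost without HB9 crush 1 or HB9 crush 3 (adjusted p up to 0.06) and when only the crush groups were fitted (0.0584). All HB9 libraries lay above all Opn4 libraries in both states. Robo1 was much lower, from 0 to 5.21 RPKM in Opn4 and 0.0114 to 1.74 RPKM in HB9 libraries, and did not pass the threshold (-0.26 ± 0.69, adjusted p = 0.869 and -0.04 ± 0.69, adjusted p = 0.98). The calls of Slit1 (0.0862), Slit2 (0.0585) and Robo2 (0.0585 and 0.117) were lost with the rod covariate. The refitted differences were 3.115 for Slit1, -2.75 for Slit2 and -2.11 and -1.65 for Robo2.

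Netrin receptors were higher in Opn4 cells for 4 of the 5 tested members after sham and for 3 after crush. Unc5d (ENSMUSG00000063626, mm10 chr8:28646717-29219338, minus strand), a repulsive netrin receptor that also binds the adhesion protein Flrt2, was at 23.9, 40.8 and 31.4 RPKM in Opn4 sham and 25, 26.7 and 21 RPKM in Opn4 crush libraries. HB9 libraries held 1.56, 1.78 and 0 RPKM after sham and 0.805, 1.43 and 2.44 RPKM after crush. No library of one class reached the other, and the differences were 4.07 ± 0.46 (adjusted p = 9.97e-05) and 3.35 ± 0.46 (adjusted p = 0.000531). Unc5a (ENSMUSG00000025876, mm10 chr13:54949411-55006018, plus strand), the highest of all guidance genes by mean, was at 103, 76.9 and 58.7 RPKM in Opn4 and 28.4, 26.2 and 20.6 RPKM in HB9 cells after sham. After crush it was at 60.2, 48.1 and 57.9 RPKM in Opn4 and 16.5, 28 and 20.1 RPKM in HB9 cells. The classes did not overlap in either state (1.60 ± 0.27, adjusted p = 0.00176 and 1.35 ± 0.27, adjusted p = 0.00583).

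Neo1 (neogenin), a receptor for netrins and for repulsive guidance molecules, differed by 2.15 ± 0.54 (adjusted p = 0.0199) after sham and 2.05 ± 0.54 (adjusted p = 0.0248) after crush. Its values after sham were 14.5, 16.5 and 34.3 RPKM in Opn4 and 4.87, 6.17 and 1.59 RPKM in HB9 cells. The sham call ended without Opn4 sham 3 or HB9 sham 3 (adjusted p up to 0.0876) and with voom on recovered reads (0.0668). The crush call of Neo1 ended without Opn4 crush 1, Opn4 crush 2, HB9 crush 1 or HB9 crush 3 (adjusted p up to 0.0957) and with no filter on low values, a fit of the compared groups only or both Opn4 libraries numbered 1 left out (up to 0.0648). Unc5c was at 5.72, 2.64 and 7.37 RPKM in Opn4 and 1.16, 0.103 and 0 RPKM in HB9 cells after sham (2.14 ± 0.57, adjusted p = 0.0273), and this call ended without Opn4 sham 1, Opn4 sham 3, HB9 sham 2 or HB9 sham 3 (up to 0.106). It ended as well with no filter on low values, voom on recovered reads or both Opn4 libraries numbered 1 left out (adjusted p up to 0.0587). Dcc, the attractive netrin receptor, lay the other way without passing the threshold: it was at 3.66, 11.2 and 5.64 RPKM in HB9 and 0, 4.69 and 0.00577 RPKM in Opn4 cells after sham (-2.02 ± 0.81, adjusted p = 0.139), and at 12, 3.46 and 19.5 against 3.56, 0.0205 and 1.87 RPKM after crush (-2.16 ± 0.81, adjusted p = 0.105). The ligand Ntn1 was at 0 in all 3 HB9 sham libraries and at 0.00696, 0.0527 and 1.51 RPKM in Opn4 sham libraries (0.47 ± 0.53, adjusted p = 0.648). Ntn4 was at 0.105, 3.66 and 6.35 RPKM in Opn4 and 0.0119, 0 and 0 RPKM in HB9 sham libraries (1.74 ± 0.87, adjusted p = 0.243). Netrin-G1 (Ntng1), an anchored relative that does not bind these receptors, was at 0.0902, 3.46 and 5.57 RPKM in Opn4 and 14, 7.86 and 5.91 RPKM in HB9 cells in its higher row (-1.61 ± 0.60, adjusted p = 0.107). Unc5d kept its calls with the rod covariate (0.0061 and 0.0148). Those of Unc5a (0.0691 and 0.121), Neo1 (0.221 and 0.2) and Unc5c (0.336) were lost. The refitted differences were 1.25 and 1.02 for Unc5a, 1.87 and 1.79 for Neo1 and 1.58 for Unc5c.

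**Figure D2:**
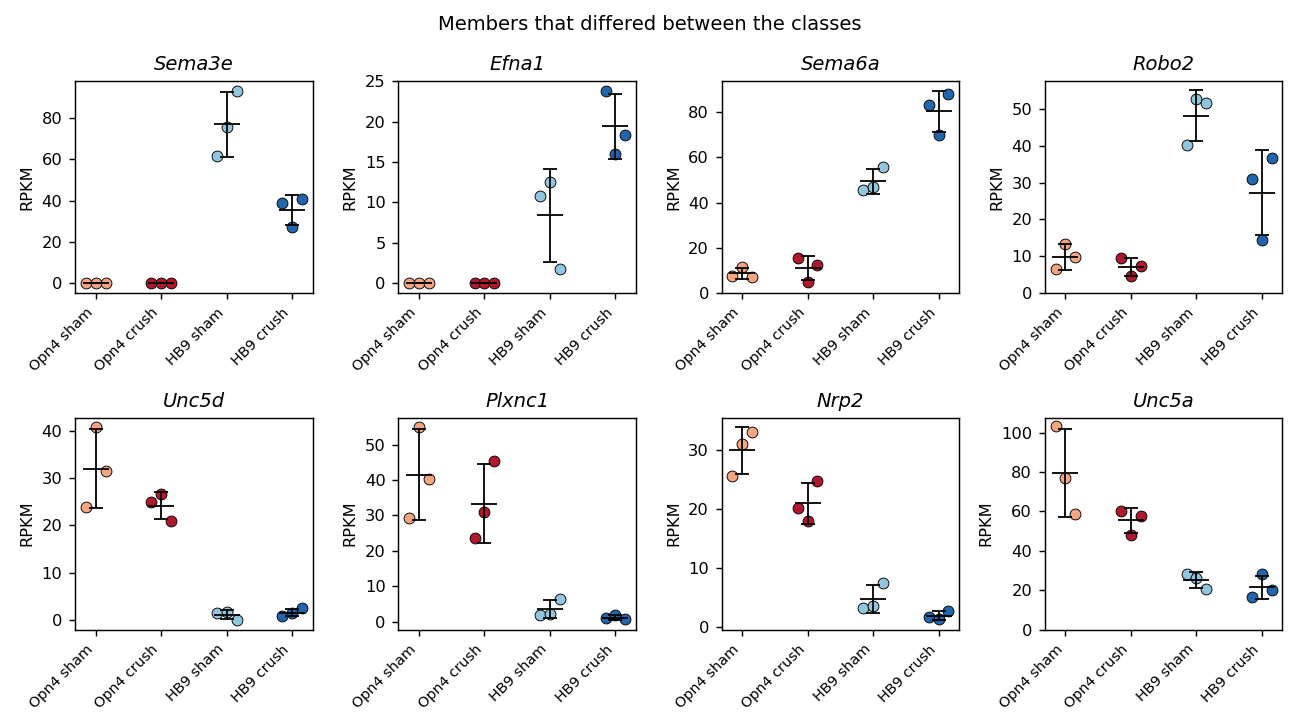
RPKM of 8 guidance genes in each library (points), by class and surgery, with the mean and SD of each group of 3 (bars), on linear axes that include 0. Sema3e, Efna1, Sema6a and Robo2 are higher in every HB9 library, and Unc5d, Plxnc1, Nrp2 and Unc5a in every Opn4 library.

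Most guidance genes called between the classes after injury had also been called before it. Of the members, 13 were past the threshold in both class comparisons, all with the same sign. The comparisons set different libraries against each other but come from 1 fit of all 12, with a common estimate of the spread, so the calls are not independent. These were 59.1% of the 22 members called after sham and 86.7% of the 15 called after crush. Over all genes tested the matching shares were 43.5% and 40.2%. Across the 62 tested members the log2 difference after sham and that after crush correlated at r = 0.81, beside 0.56 over all genes. This describes genes measured in the same libraries, which share rod content and mouse line, and genes are not independent replicates. Of the 38 called values of members, 14 kept their call under all 21 alternatives, none changed sign under any, and 23 lost the call with the rod covariate. The 14 were both class differences of Sema3e, Efna1, Sema6a, Plxnc1, Nrp2 and Unc5d, the sham difference of Efna3 and the crush difference of Plxna3.

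**Figure D3:**
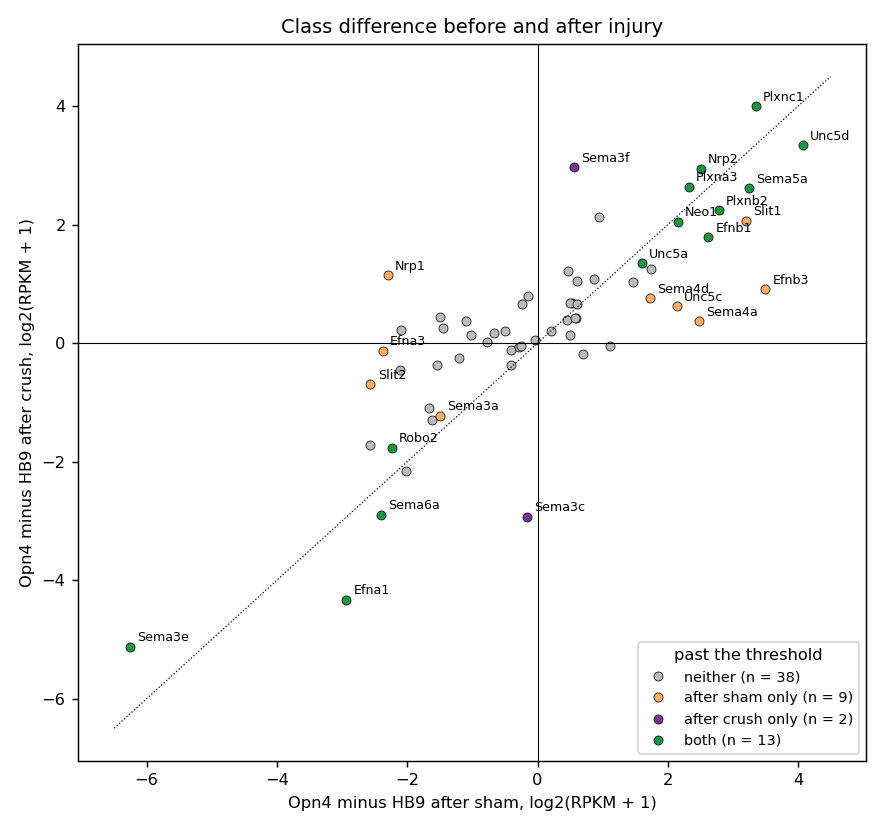
Difference between Opn4 and HB9 cells after sham (x axis) and after crush (y axis), both as log2(RPKM + 1), for the 62 tested guidance rows (points), coloured by the comparison in which they passed the threshold; the dotted line marks equal differences. The 13 members past it in both lie in the lower left (Sema3e, Efna1, Sema6a and Robo2) and the upper right quadrant.

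The crush comparison within each class asks which guidance genes moved by 3 days after the lesion. In HB9 cells 1 of the 62 tested members was past the threshold, beside 6.42% of all genes (3.84% higher and 2.57% lower). Sema3c (ENSMUSG00000028780, mm10 chr5:17574281-17730268, plus strand) rose from 1.83, 2.19 and 0 RPKM after sham to 22.3, 10.8 and 27.3 RPKM after crush. All crush libraries were above all sham libraries, and the log2 change was 3.25 ± 0.81 (adjusted p = 0.0301). The call ended under 10 of 21 alternatives, including those without HB9 sham 1, HB9 sham 2, HB9 sham 3, HB9 crush 1 or HB9 crush 3 (adjusted p up to 0.13), with voom (0.204) and with the rod covariate (0.0602). In Opn4 cells Sema3c was at 0, 5.11 and 0.0586 RPKM after sham and 4.14, 0 and 2.43 RPKM after crush (0.48 ± 0.81, adjusted p = 0.833), and the difference between the crush effects was -2.77 ± 1.14 (adjusted p = 0.327).

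The crush effect in HB9 cells had an unadjusted p under 0.05 for 15 members, a count without the share over all genes to set beside it. The sham and crush libraries did not overlap for 20 of the 62, beside 31.5% of all genes. The median change was -0.13 over the members and 0.11 over all genes. When the 6 HB9 libraries were fitted alone, 8 members passed the threshold (12.9% of those tested, beside 10.6% of all genes). Beside Sema3c at 3.25 (adjusted p = 0.0192), Plxna2, the Sema6a receptor, rose by 1.59 (adjusted p = 0.0311) and Sema6a by 0.69 (adjusted p = 0.0333). Sema3e fell, with a change of -1.09 (adjusted p = 0.0273), and Sema3f of -1.65 (adjusted p = 0.03). Efna3 changed by -1.51 (adjusted p = 0.0433). Sema5b (-1.57, adjusted p = 0.0353) and Epha8 (-1.80, adjusted p = 0.0498), which were named after their values were seen, fell in this fit as well. In the limma fit of all 12 libraries only Sema3c of these genes passed. There the adjusted p was 0.332 for Sema6a, 0.301 for Sema3f, 0.081 for Efna3, 0.131 for Sema5b and 0.148 for Epha8. The calls of the HB9 fit were not checked by leaving libraries out.

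Plxna2 was at 8.29, 11.6 and 9.7 RPKM after sham and 32.5, 20 and 47 RPKM after crush in HB9 cells, with no overlap, and its change in the fit of all libraries was 1.59 ± 0.58 (adjusted p = 0.141). Sema3e went from between 61.8 and 93.3 RPKM to between 27.4 and 40.6 RPKM, a change of -1.09 ± 0.35 (adjusted p = 0.0958) in that fit, where it missed the threshold, while voom on recovered reads gave -1.12 (adjusted p = 0.00435). Both genes kept their sham and crush libraries apart. Robo2 was lower in each HB9 crush library than in any HB9 sham library (-0.89 ± 0.40, adjusted p = 0.246), and Slit2 and Ephb1 likewise (-1.22 ± 0.52, adjusted p = 0.216 and -1.63 ± 0.59, adjusted p = 0.136), without passing the threshold. Slit1 lay the other way, at 2.42, 5.21 and 1.35 RPKM after crush against 0.587, 0 and 0 RPKM (1.66 ± 0.65, adjusted p = 0.175). Median rod values were 3.56 in HB9 sham and 4.21 in HB9 crush libraries, but the ranges overlapped (3.05 to 4.76 and 3.96 to 4.70). Of the 15 rod markers 0 passed the threshold for crush in HB9 cells. The part of rod content in these changes was tested only through the covariate. Bipolar cell markers averaged 3.105 to 3.737 in HB9 sham and 1.58 to 2.911 in HB9 crush libraries. Their median change was -0.809, with 1 of 10 lower. Higher after crush were 1 of 8 amacrine markers and 1 of 3 markers of microglia and macrophages. Of 6 markers of Muller glia and astrocytes, 1 was higher and 1 lower. The part of these other cells was not tested. Over the same libraries the median level of 6 ooDSGC markers (of ON-OFF direction-selective cells) went from 6.25 to 4.92, with 1 of the 6 past the threshold. Of 11 markers shared by ganglion cells 4 fell, with a median change of -0.75. The part of these markers in the changes of Sema3e, Robo2 and Slit2 was not tested.

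In Opn4 cells no member passed the threshold for the crush effect with limma, and none did with voom on recovered reads. The background was 1.11% of all genes (0.69% higher and 0.421% lower). Unadjusted p-values under 0.05 numbered 4 with limma and 6 with voom, the libraries did not overlap for 10 members (background 14.7%), and the median change was 0.31, beside -0.02 over all genes. Sema4f, a class 4 semaphorin described after its values were seen, came closest. It was at 14.4, 11.9 and 14 RPKM after sham and 32.4, 32.7 and 50.5 RPKM after crush, with every crush library above every sham library (1.43 ± 0.32, adjusted p = 0.0514). It was past the threshold without HB9 sham 2 (0.0448), with centring on the median (0.0473) and with a replicate block (0.0481). Nrp1 was at 0, 0.482 and 2.55 RPKM after sham and 4.16, 8.1 and 9.75 RPKM after crush (2.19 ± 0.60, adjusted p = 0.109). With the rod covariate its change was 2.58 (adjusted p = 0.0198).

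The difference between the crush effects of the classes was tested directly as an interaction. No member was past the threshold with limma or with voom, beside 0.816% of all genes (0.29% positive and 0.525% negative), and 9 members with limma and 8 with voom had an unadjusted p under 0.05. The estimates for Nrp1 had opposite signs, 2.19 in Opn4 cells and -1.25 in HB9 cells, and the interaction was 3.44 ± 0.85 (adjusted p = 0.0953). Of the alternatives run, the rod covariate alone took it past the threshold, at 3.35 (adjusted p = 0.0327). The interaction of Plxna2 was -0.88 ± 0.82 (adjusted p = 0.714), and Plxna2 in Opn4 cells was at 4.27, 27.7 and 34.8 RPKM after sham and 25.4, 26.3 and 31.2 RPKM after crush, with the low sham value in Opn4 sham 1. Of the genes that carry the class difference, Unc5d, Plxnc1 and Sema6a changed in Opn4 cells by -0.36 ± 0.46, -0.31 ± 0.46 and 0.20 ± 0.35, none past the threshold (adjusted p 0.761, 0.801 and 0.843).

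**Figure D4:**
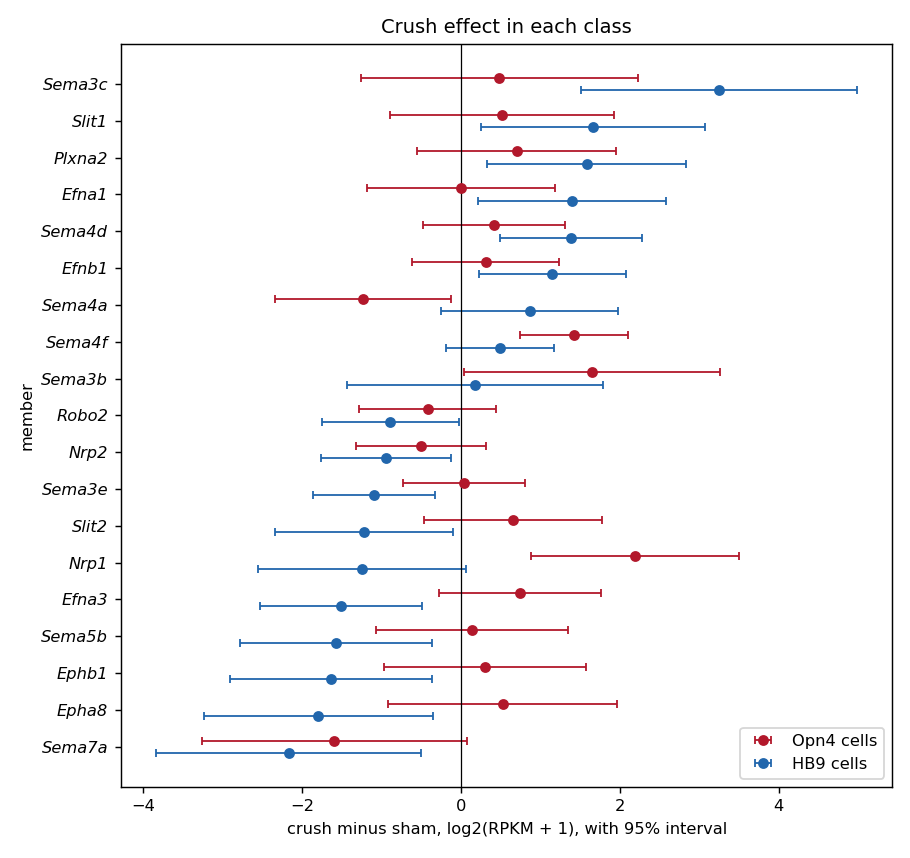
Change after crush (crush minus sham, log2(RPKM + 1), x axis) in Opn4 and HB9 cells for each guidance gene with an unadjusted p under 0.05 in either class (y axis), with the estimate (point) and its 95% interval (bar) from the fit of all 12 libraries. Sema3c in HB9 cells lies farthest to the right at 3.25, and the intervals of Opn4 cells exclude 0 for 4 genes.

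Genes that carry guidance signals inside the cell, or modify the receptors, were read from a list of 46 co-receptors, secreted modulators and effectors, all of them tested. After sham 3 of the 46 were higher and 6 lower in Opn4 cells (backgrounds 5.82% and 5.93%, or 11.8% in either direction), with a median difference of -0.04 beside 0.01 over all genes. Ngef (ephexin-1), an exchange factor bound by EphA4, was at 116, 120.3 and 91.9 RPKM in Opn4 and 16.2, 37.3 and 18.8 RPKM in HB9 cells, with no overlap (2.22 ± 0.35, adjusted p = 0.00129). Dscam, an adhesion protein that can bind netrin, differed by 3.23 ± 0.60 (adjusted p = 0.00363), and Flrt3, an adhesion protein that binds Unc5 and Robo receptors, by 2.13 ± 0.56 (adjusted p = 0.0251). Chn1, a Rac inhibitor downstream of EphA4, was lower in Opn4 cells at 174, 163 and 189.7 RPKM against 333, 333 and 387 RPKM (-1.0 ± 0.18, adjusted p = 0.00275). The plexin-binding Rnd1 (-1.48) and Mical2 (-1.77), the exchange factor Vav3 (-3.51), Dpysl4 (-1.79) and the neuropilin-binding Gipc1 (-0.91) completed the lower ones. Of these 9 sham calls, those of Flrt3 (without Opn4 sham 3, HB9 sham 2 or HB9 sham 3), Rnd1 (without Opn4 sham 1, Opn4 sham 3, HB9 sham 1 or HB9 sham 3), Vav3 (without Opn4 sham 1, Opn4 sham 3, HB9 sham 2 or HB9 sham 3) and Gipc1 (without Opn4 sham 3, HB9 sham 1 or HB9 sham 3) each ended, with an adjusted p of up to 0.0928, 0.122, 0.057 and 0.0909. The rod covariate ended 8 of the 9: Chn1 (0.0623), Dscam (0.122), Dpysl4 (0.131), Mical2 (0.126), Flrt3 (0.241), Rnd1 (0.107), Vav3 (0.129) and Gipc1 (0.121). Ngef alone was kept (0.0317). No other alternative ended Chn1, Dscam, Dpysl4 or Mical2, while Flrt3, Rnd1, Vav3 and Gipc1 were lost under 7, 9, 7 and 5 of 21.

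After crush the list again gave 3 higher and 6 lower genes in Opn4 cells (backgrounds 5.12% and 7.6%, or 12.7% in either direction), with a median of 0.07 beside -0.12. Ngef was at 147, 162 and 144 RPKM in Opn4 and 14.6, 21.4 and 7.46 RPKM in HB9 cells, a difference of 3.40 ± 0.35 (adjusted p = 6.61e-05), and the interaction missed the threshold (1.18 ± 0.50, adjusted p = 0.341). The netrin antagonist Draxin (1.94 ± 0.44, adjusted p = 0.0118) and the semaphorin effector Dpysl2 (0.53 ± 0.14, adjusted p = 0.0295) were higher as well. Flrt3 was now lower in Opn4 cells (-1.88 ± 0.56, adjusted p = 0.0425). The neogenin ligand Rgma (-1.44), Arhgef11 (-1.37), Mical2 (-1.24), Vav3 (-3.05) and Gipc1 (-0.89) were also lower. Of these 9 calls, only those of Ngef and Draxin held without each library in turn. Without 1 library the adjusted p rose to 0.0824 for Dpysl2 (each of the 6 crush libraries ended it), 0.136 for Flrt3 (without Opn4 sham 2, Opn4 crush 1, Opn4 crush 2, HB9 sham 2, HB9 crush 1, HB9 crush 2 or HB9 crush 3) and 0.116 for Rgma (without Opn4 crush 1, Opn4 crush 3, HB9 sham 1, HB9 sham 2, HB9 sham 3, HB9 crush 1, HB9 crush 2 or HB9 crush 3). It rose to 0.0518 for Arhgef11 (without HB9 crush 3), 0.132 for Mical2 (without Opn4 crush 1, Opn4 crush 2, HB9 crush 1 or HB9 crush 3), 0.104 for Vav3 (without Opn4 crush 2, HB9 crush 1, HB9 crush 2 or HB9 crush 3) and 0.0871 for Gipc1 (without Opn4 crush 1, HB9 crush 2 or HB9 crush 3). Adding the rod covariate ended 8 of them: Draxin (0.073), Dpysl2 (0.272), Flrt3 (0.146), Rgma (0.213), Arhgef11 (0.0553), Mical2 (0.303), Vav3 (0.159) and Gipc1 (0.108). Ngef was kept (0.00278). Flrt3 was lost under 13, Vav3 under 9, Mical2 under 7 and Gipc1 under 5 of 21 alternatives, and Rgma under 15 of 20.

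For the crush effect 5 of the 46 signalling genes passed in HB9 cells (background 6.42%) and 0 in Opn4 cells (background 1.11%), where limma gave 10 at an unadjusted p under 0.05 and voom on recovered reads called 0, with 12 at an unadjusted p under 0.05. In HB9 cells Flrt3 rose from 8.44, 4.01 and 0.693 RPKM to 133, 89.9 and 113 RPKM (4.70 ± 0.56, adjusted p = 0.000261). Mical1, an enzyme that takes actin filaments apart downstream of plexins, rose from 1.27, 0.0134 and 0 RPKM to 6.51, 7.98 and 4.11 RPKM (2.41 ± 0.47, adjusted p = 0.00824). The sham and crush libraries did not overlap for either gene. Chn1 fell from 333, 333 and 387 RPKM to 97.6, 108 and 102 RPKM (-1.76 ± 0.18, adjusted p = 8.04e-05). Flrt2, the Unc5d ligand, and Dpysl2 fell as well, with changes of -2.22 ± 0.50 (adjusted p = 0.0186) and -0.68 ± 0.14 (adjusted p = 0.0121). These calls ended without HB9 sham 1, HB9 sham 2, HB9 sham 3 or HB9 crush 2 for Flrt2 (adjusted p up to 0.0791) and without HB9 sham 1 for Dpysl2 (0.0545). In Opn4 cells Flrt3 was at 14.1, 15.5 and 25.7 RPKM after sham and 21.2, 20.7 and 57 RPKM after crush (0.69 ± 0.56, adjusted p = 0.616). Chn1 went from 174, 163 and 189.7 RPKM to 125, 167 and 102 RPKM there (-0.44 ± 0.18, adjusted p = 0.284), and Mical1 from 0, 0.832 and 1.09 RPKM to 6.24, 5.74 and 5.44 RPKM (2.12 ± 0.47, adjusted p = 0.0542), none past the threshold. The crush libraries of the classes overlapped for Mical1, and its interaction was -0.29 ± 0.67 (adjusted p = 0.906). The interaction was past the threshold for 2 of the 46 genes (background 0.816%), Flrt3 at -4.0 ± 0.79 (adjusted p = 0.0359) and Chn1 at 1.32 ± 0.25 (adjusted p = 0.0315). The call of Flrt3 ended under 15 of 20 alternatives, among them those without Opn4 sham 1, Opn4 sham 2, Opn4 sham 3, Opn4 crush 1, Opn4 crush 2, HB9 sham 2, HB9 crush 1, HB9 crush 2 or HB9 crush 3, and that of Chn1 under 13 of 20, among them those without Opn4 sham 1, Opn4 sham 2, Opn4 sham 3, Opn4 crush 1, HB9 sham 1, HB9 sham 2, HB9 sham 3, HB9 crush 1, HB9 crush 2 or HB9 crush 3 (adjusted p up to 0.0957 and 0.0924).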

How the data were processed

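The deposited table gives 1 RPKM value per Ensembl gene and library, made by the authors. Per the submitters' processing notes, the build was mm10 and the tools were edgeR 3.14.0, Bowtie and TopHat2 2.0.11; the counting step, its use of strand and the annotation are not given in the sources used here. All 12 columns were matched to samples by the library ID in the labels. Values were tested as log2(RPKM + 1) with limma 3.58.1 in R 4.3.3 (4 group means, eBayes with trend, two-sided, Benjamini-Hochberg over 18269 genes with at least 1 RPKM in at least 3 libraries). Tables were made with Python 3.11.15 and pandas 2.3.3. RPKM steps gave whole reads for 100% of 28168 genes (within 0.01 read). Their sums were 226.7% to 244.2% of the scaling totals, so they serve only for floors, for limma's voom and to show how near 0 Sema3e lay in Opn4 libraries.

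The gene families, lists, tests and alternatives were chosen with earlier results of these data known; within the families the symbol alone decided which rows are members. Named were members past the threshold (at most 10 per direction and comparison), the highest of each family, 16 fixed members, 7 class or injury markers and called list genes. Of the 74 IDs, 71 were in GENCODE M21 and 18 members share exon bases with another gene there; among called members other than Efna3 the share is at most 1.38%. The fit was tested on simulated data. Alternatives were another pseudocount, other filters, median centring, the compared groups only, a replicate block, the rod covariate, voom and leaving out each library; leaving out both Opn4 libraries numbered 1 was chosen after seeing the data.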

Additional observations from a re-analysis of the deposited data

Results flagged for a closer look

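Among the signalling genes the change after crush differed between the classes for Chn1, by 1.32 on the log2 scale (Opn4 minus HB9, 0.0315 adjusted p from limma's interaction contrast), with a fall of 1.76 in HB9 cells and a change of -0.44 in Opn4 cells. This call ended without each library in turn except Opn4 crush 2 and Opn4 crush 3 (adjusted p up to 0.0924). The change of Flrt3 differed by -4.0 (adjusted p = 0.0359), with 4.70 in HB9 cells and 0.69 in Opn4 cells. Its call ended without each library in turn except Opn4 crush 3, HB9 sham 1 and HB9 sham 3 (adjusted p up to 0.0957).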

How the results depend on the processing

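Members past the threshold numbered 22 (class difference after sham), 15 (class difference after crush), 0 (crush in Opn4 cells), 1 (crush in HB9 cells) and 0 (interaction), and signalling genes 9, 9, 0, 5 and 2, in the same order. With the rod covariate the members numbered 8, 9, 1, 0 and 1, and the signalling genes 2 after sham, 1 after crush and 1 in the interaction. Leaving out 1 library gave 17 to 24, 9 to 17, 0 to 1, 0 to 2 and 0 members, and 6 to 10, 2 to 9, 0 to 1, 3 to 6 and 0 to 2 signalling genes. With only the compared groups, 8 members and 8 signalling genes passed for crush in HB9 cells, and 5 signalling genes for the class difference after crush; this could not be run for the interaction. Without the filter 0 members passed for crush in HB9 cells and 0 signalling genes in the interaction. With median centring 1 member and 1 signalling gene passed for crush in Opn4 cells, as did 1 signalling gene with at least 1 RPKM in 6 libraries. A pseudocount of 0.1 and voom each left 1 signalling gene in the interaction. Without both Opn4 libraries numbered 1, an alternative chosen after seeing the data, 5 members passed for crush in HB9 cells and 0 signalling genes in the interaction. No called value of a member reversed. The causes were not tested.

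A replicate block gave 1 member for crush in Opn4 cells, 0 members for crush in HB9 cells and 0 signalling genes in the interaction. Same-numbered libraries did not deviate together: r lay between -0.02 and 0.08 for the 18 pairs, beside -0.08 to 0.07 for other numbers, and a library correlated best with its own number in 14 of 36 cases, so the numbers were not taken to pair the libraries. With 30 amplified cells per library, zeros among genes of a few RPKM limit what could be detected.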

Other observations

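Several guidance genes were uneven among libraries of 1 group. Epha3 was at 10.3, 0.0936 and 0.132 RPKM in the Opn4 sham libraries, and Epha4 at 23, 5.2 and 0.105 RPKM in the Opn4 crush libraries. Sema3b was at 6.6, 6.17 and 0 RPKM in the Opn4 crush libraries and Robo4, an endothelial robo, at 0, 2.73 and 0 RPKM, where it was at 0 in all 6 HB9 libraries. Dcc was at 0, 4.69 and 0.00577 RPKM in the Opn4 sham libraries. Apart from Dcc, which was among the fixed members, these genes were chosen after their values were seen.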
